A study of Homo sapiens with 15 samples.

Results

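The genes described here are 10 members of the BMP and TGF-beta signalling circuit. They are the ID genes ID1, ID2 and ID3, the feedback inhibitors SMAD6, SMAD7, BAMBI and SKIL, and the ligands BMP4, TGFB1 and TGFB2. They were taken by name from a table of 61248 loci, and all 10 were found. All 10 also passed the filter on low values, as did 14999 loci in all. The rule is a list of names with no threshold, but the names were selected on the FPKM levels and fold changes of these genes between the 5 groups of the same libraries. Their levels, fold changes and counts past a threshold are therefore given as descriptions. Calls past the threshold come from a fit of all genes and are no test of this list. The direction of the members' changes is not independent evidence for anything.

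The libraries come from NCI-H1975, a human lung adenocarcinoma cell line in long use that carries a mutated EGFR. The 5 groups of 3 libraries each were cells given almonertinib (a drug that inhibits the kinase of mutated EGFR), cells given EGF (the ligand of EGFR), cells with an EGFR knockdown (siEGFR), cells labelled siNC, read here as the control siRNA of the knockdown, and cells labelled control. The line and its EGFR alleles are common to all 5 groups. Doses, times and media are not in the labels, nor is a vehicle for the control cells. Whether replicates were separate cultures is not stated there either, so p-values below cover only library-to-library spread, which could be technical. Differences between siNC and control take in the transfection and anything else that differed between those cultures, which cannot be told apart. In bulk RNA, fewer cells making a transcript and less transcript per cell cannot be told apart either.

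BMP and TGF-beta ligands bind pairs of receptor kinases that phosphorylate SMAD proteins, which then enter the nucleus with SMAD4 and regulate transcription. The ID genes are classical targets of the BMP branch, and their proteins lack a DNA-binding region and sequester basic helix-loop-helix factors such as the products of TCF3 and TCF12. SMAD6, SMAD7, BAMBI and SKIL are induced by the same pathway and dampen it. In lung epithelium and its tumours TGF-beta is known for growth arrest and for the transition towards a mesenchymal state, and BMP4 for its role in lung development.

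The upstream sequences of the ID genes and of the inhibitors SMAD6 and BAMBI are shown because these genes carry the contrast between the groups described below. ID2, ID3 and BAMBI differed from control with both drug and ligand. ID1 differed with the drug but not the ligand, and SMAD6 with the ligand but not the drug. Each sequence holds the 250 bases before the RefSeq start on GRCh38.p14, 5′ to 3′ on the strand of the gene. Capitals mark GGCGCC, a GC-rich sequence bound by SMAD1 and SMAD5, and CAGAC, which contains the core that SMAD3 and SMAD4 bind, on either strand, and the palindrome GTCTAGAC. No marked match overlapped another. The windows are chr20:31605039-31605288 (plus strand), chr2:8681806-8682055 (plus), chr1:23559502-23559751 (minus), chr15:66701986-66702235 (plus) and chr10:28677271-28677520 (plus).
ID1: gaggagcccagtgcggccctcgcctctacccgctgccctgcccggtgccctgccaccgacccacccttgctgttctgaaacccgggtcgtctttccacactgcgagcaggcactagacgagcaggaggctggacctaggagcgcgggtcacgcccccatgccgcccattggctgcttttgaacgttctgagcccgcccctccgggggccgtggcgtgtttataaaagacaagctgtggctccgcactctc
ID2: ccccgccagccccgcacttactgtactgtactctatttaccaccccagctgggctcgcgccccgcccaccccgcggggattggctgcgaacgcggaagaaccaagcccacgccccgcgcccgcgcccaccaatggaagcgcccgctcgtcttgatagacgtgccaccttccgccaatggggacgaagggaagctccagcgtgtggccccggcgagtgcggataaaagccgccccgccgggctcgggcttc
ID3: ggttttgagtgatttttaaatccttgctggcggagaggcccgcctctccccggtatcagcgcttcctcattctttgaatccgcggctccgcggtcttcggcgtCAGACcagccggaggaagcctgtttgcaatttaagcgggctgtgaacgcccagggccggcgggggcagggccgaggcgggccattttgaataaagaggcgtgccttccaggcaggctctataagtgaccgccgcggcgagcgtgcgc
SMAD6: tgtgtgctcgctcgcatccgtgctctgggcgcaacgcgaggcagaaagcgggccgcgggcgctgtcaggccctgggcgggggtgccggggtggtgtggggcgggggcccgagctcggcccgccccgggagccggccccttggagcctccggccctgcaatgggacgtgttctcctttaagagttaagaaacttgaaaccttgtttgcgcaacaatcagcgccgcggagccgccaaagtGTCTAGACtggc
BAMBI: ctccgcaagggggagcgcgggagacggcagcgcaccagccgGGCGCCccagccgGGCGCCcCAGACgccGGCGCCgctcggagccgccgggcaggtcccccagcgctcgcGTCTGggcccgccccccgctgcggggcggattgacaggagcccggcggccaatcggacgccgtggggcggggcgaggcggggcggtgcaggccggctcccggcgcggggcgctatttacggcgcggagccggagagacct

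The windows of ID1 and ID2 held none of the 3 marked sequences, and that of ID3 held 1 CAGAC at -147 from the start. The window of SMAD6 held the palindrome GTCTAGAC at -12, which 0.182% of 35116 RefSeq windows of that length held. BAMBI held 3 copies of GGCGCC and 2 of CAGAC. At least 1 copy of each was in 16.4% and 38.0% of all windows, and windows with as many copies were not counted. Over all RefSeq starts of a gene, 3 of the 10 genes had a GGCGCC and 6 had a CAGAC, against 19.0% and 42.8% of 27305 genes. The E-box CANNTG, to which basic helix-loop-helix factors bind, was found upstream of 4 of the 10 genes, against 66.7% of genes. The cAMP response sequence TGACGTCA was found upstream of SKIL alone among the 10, against 2.03% of genes, and GCGTGGGCG, a site of EGR1, upstream of TGFB1 alone, against 0.886%. A match describes letters only, and which start these cells used was not measured.

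Read totals recovered from the table ran from 18009903 to 34908302 per library. EGFR itself stood between 28.6 and 29.9 FPKM in the siEGFR libraries and between 49.4 and 49.8 FPKM in the siNC libraries. It averaged 16.7 FPKM with almonertinib, 25.4 FPKM with EGF and 24.4 FPKM in control. DUSP6, a phosphatase that ERK induces, averaged 0.343 FPKM with almonertinib, 13.5 FPKM with EGF, 4.07 FPKM in siEGFR, 9.04 FPKM in siNC and 2.16 FPKM in control. Control 1 and almonertinib 3 deviated most from the mean of their groups, with median absolute deviations of 0.139 and 0.123 on the log2 scale over the tested genes, against 0.033 to 0.113 in the other libraries. Of 9 epithelial markers, 7 to 9 averaged at least 1 FPKM in each group. Fibroblast markers DCN, LUM and PDGFRA and leukocyte markers PTPRC, CD3E and LYZ averaged at most 0.0543 FPKM in any group (PTPRC in control).

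The ID genes were high after drug and after siRNA and low in control and EGF libraries. ID1 was at 57.6, 65.1 and 64.9 FPKM in almonertinib libraries 1, 2 and 3, at 34.5, 38.7 and 36.2 FPKM in EGF libraries and at 27.2, 37.8 and 35.4 FPKM in control libraries. It was at 144, 155 and 143 FPKM in siEGFR libraries and at 127, 134 and 129 FPKM in siNC libraries. Every siEGFR library thus lay above every siNC library, siNC above almonertinib, and almonertinib above EGF and control, while EGF and control overlapped.

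ID2 was at 22.3, 22.7 and 24.5 FPKM in almonertinib libraries, at 4.97, 3.95 and 4.62 FPKM in EGF libraries and at 5.61, 7.13 and 6.25 FPKM in control libraries. It was at 18.4, 16.5 and 17.3 FPKM in siEGFR libraries and at 18.4, 18.3 and 19.3 FPKM in siNC libraries. ID2 was the ID gene that stood highest with the drug rather than with siRNA, its siEGFR and siNC libraries overlapped, and every EGF library lay below every control library.

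ID3 was at 76.8, 82.5 and 89.2 FPKM in almonertinib libraries, at 11.3, 12.0 and 11.0 FPKM in EGF libraries and at 27.8, 32.6 and 33.1 FPKM in control libraries. It was at 107, 110.2 and 111 FPKM in siEGFR libraries and at 95.7, 97.6 and 96.5 FPKM in siNC libraries. No groups overlapped for ID3, and the order upwards was EGF, control, almonertinib, siNC and siEGFR.

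**Figure D1:**
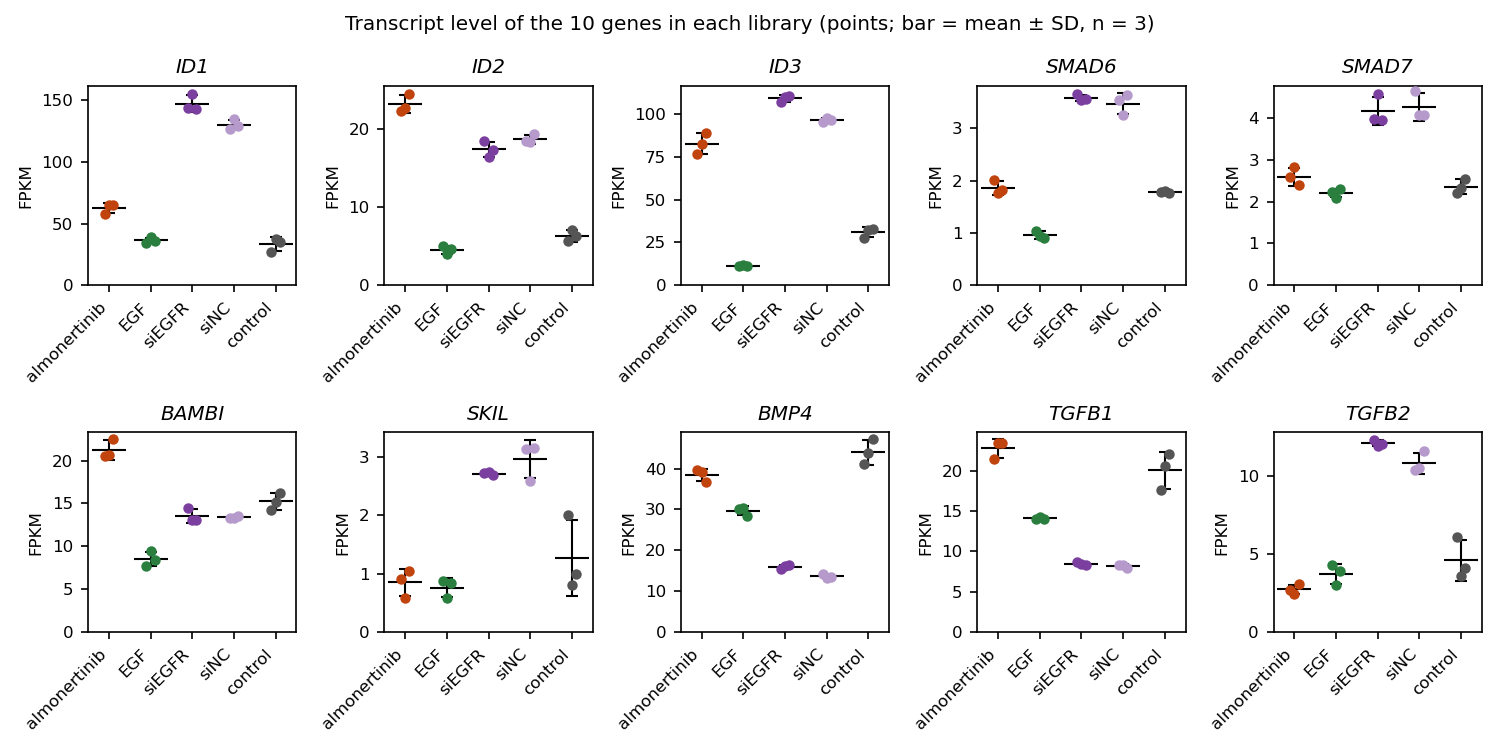
Level of each of the 10 genes in FPKM (vertical axes, from 0) in the 5 groups, with 1 point per library and the mean ± SD (n = 3). ID3 separates all 5 groups, ID1 overlaps between EGF and control, and BMP4 and TGFB1 are lowest in the siRNA groups while TGFB2 is highest there.

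The summed level of ID1, ID2 and ID3 averaged 169 ± 11.1 FPKM with almonertinib, 52.4 ± 2.03 with EGF, 274 ± 6.95 in siEGFR, 245 ± 4.62 in siNC and 71.0 ± 9.09 in control (SD, n = 3 each). The ID genes did not move in proportion. The ratio of ID1 to ID3 was 0.728 to 0.789 in almonertinib libraries, 3.04 to 3.29 in EGF libraries, 1.29 to 1.41 in siEGFR libraries, 1.33 to 1.38 in siNC libraries and 0.977 to 1.16 in control libraries. ID1 made up 37.1% of the sum with almonertinib, 69.5% with EGF and 47.0% in control. TCF3 and TCF12, partners that ID proteins bind, and TCF4, which was near 0, together averaged 28.1 FPKM with almonertinib, 33.3 FPKM with EGF, 35.8 FPKM in siEGFR, 36.0 FPKM in siNC and 28.8 FPKM in control. The ID sum was accordingly 6.04 ± 0.877 times the partner sum with almonertinib, 1.58 ± 0.0288 times with EGF, 7.65 ± 0.239 times in siEGFR, 6.81 ± 0.0807 times in siNC and 2.46 ± 0.178 times in control. These are ratios of transcript levels per gene length.

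**Figure D2:**
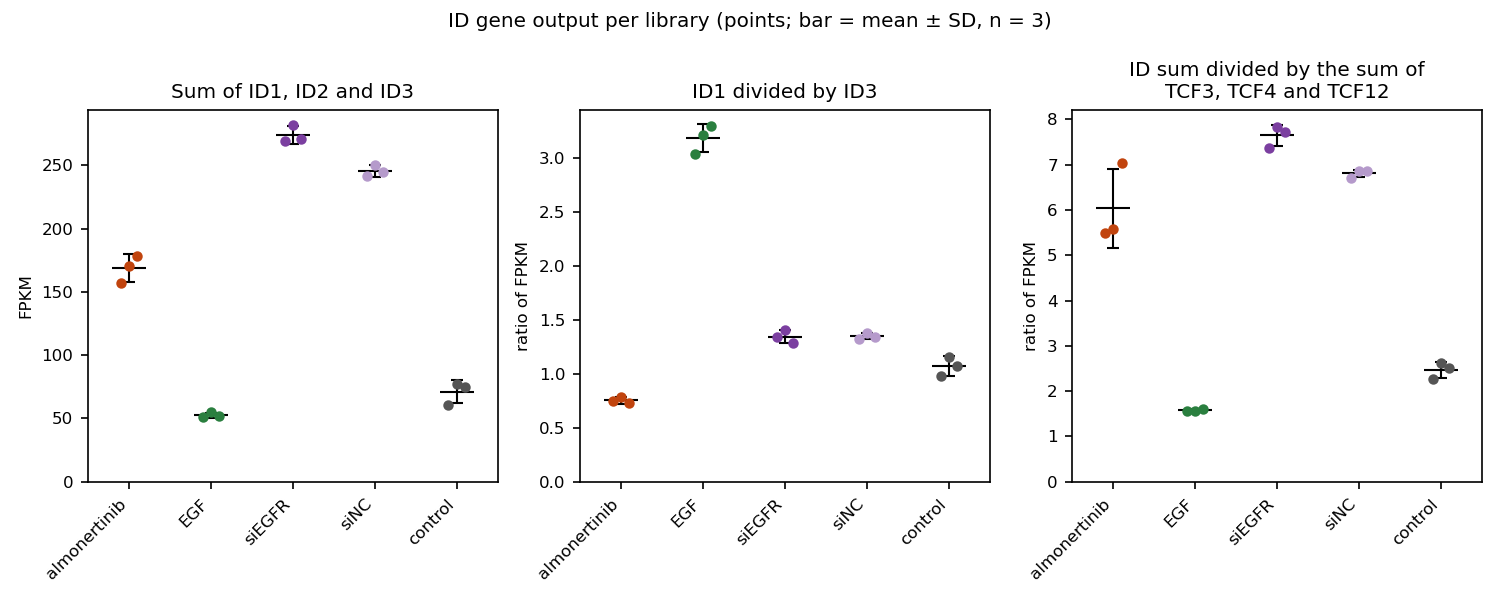
Summed ID1, ID2 and ID3 level in FPKM, the ratio of ID1 to ID3, and the ID sum divided by the sum of TCF3, TCF4 and TCF12, per library (points) with the mean ± SD (n = 3). EGF libraries have the lowest sum and the highest ratio of ID1 to ID3 (3.04 to 3.29), and almonertinib libraries have the lowest ratio (0.728 to 0.789).

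SMAD6, which blocks BMP receptor signalling, differed with ligand and siRNA but not with the drug. It was at 2.02, 1.76 and 1.82 FPKM in almonertinib libraries, at 1.04, 0.938 and 0.905 FPKM in EGF libraries and at 1.78, 1.81 and 1.77 FPKM in control libraries. It was at 3.65, 3.54 and 3.57 FPKM in siEGFR libraries and at 3.54, 3.25 and 3.63 FPKM in siNC libraries. The EGF libraries lay below all others, and almonertinib overlapped control as siEGFR overlapped siNC.

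SMAD7, which blocks TGF-beta and BMP receptors, differed mainly between siRNA and other cultures. It was at 2.58, 2.82 and 2.39 FPKM in almonertinib libraries, at 2.23, 2.09 and 2.29 FPKM in EGF libraries and at 2.21, 2.32 and 2.55 FPKM in control libraries. It was at 3.98, 4.56 and 3.96 FPKM in siEGFR libraries and at 4.64, 4.07 and 4.07 FPKM in siNC libraries. Both siRNA groups lay above the rest, and neither siEGFR and siNC nor almonertinib or EGF and control were separated. The ratio of SMAD7 to SMAD6 was 2.15 to 2.53 in EGF libraries and 1.24 to 1.44 in control libraries.

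BAMBI, a decoy receptor without a kinase, was the feedback gene that was higher with the drug and lower with the ligand. It was at 20.5, 20.6 and 22.6 FPKM in almonertinib libraries, at 7.71, 9.40 and 8.39 FPKM in EGF libraries and at 14.3, 15.2 and 16.3 FPKM in control libraries. It was at 14.5, 13.1 and 13.1 FPKM in siEGFR libraries and at 13.4, 13.3 and 13.5 FPKM in siNC libraries. The drug and EGF groups stood clear of all others on either side, and siEGFR overlapped both siNC and control.

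SKIL, which encodes the SMAD repressor SnoN, was low throughout. It was at 0.912, 0.584 and 1.05 FPKM in almonertinib libraries, at 0.873, 0.576 and 0.831 FPKM in EGF libraries and at 2.01, 0.797 and 0.992 FPKM in control libraries, where control 1 alone exceeded 2 FPKM. It was at 2.73, 2.74 and 2.69 FPKM in siEGFR libraries and at 3.15, 2.59 and 3.16 FPKM in siNC libraries. The siRNA groups lay above the others, which overlapped one another. SKIL rested on 101 to 858 reads per library, against 207 to 5562 for the ID genes.

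BMP4, the ligand of the BMP branch, was the highest of 18 BMP, TGF-beta and activin ligand transcripts in every group, per gene length. It was at 39.6, 39.1 and 36.8 FPKM in almonertinib libraries, at 30.2, 30.4 and 28.4 FPKM in EGF libraries and at 41.1, 43.8 and 47.1 FPKM in control libraries. It was at 15.3, 16.1 and 16.4 FPKM in siEGFR libraries and at 14.1, 13.2 and 13.4 FPKM in siNC libraries. No groups overlapped, but almonertinib and control were separated by less than the range within control. NOG, which encodes the BMP antagonist noggin, averaged 5.89 FPKM with almonertinib, 19.3 FPKM with EGF, 8.16 FPKM in siEGFR, 8.77 FPKM in siNC and 6.80 FPKM in control. The ratio of BMP4 to NOG was 6.14 to 6.97 in almonertinib libraries, 1.5 to 1.61 in EGF libraries, 1.82 to 2.21 in siEGFR libraries, 1.49 to 1.63 in siNC libraries and 5.92 to 6.97 in control libraries.

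TGFB1 and TGFB2 encode TGF-beta ligands of like function, and they ran opposite ways between siRNA and other cultures. TGFB1 was at 21.4, 23.4 and 23.5 FPKM in almonertinib libraries, at 14.0, 14.2 and 14.1 FPKM in EGF libraries and at 17.6, 20.6 and 22.1 FPKM in control libraries. It was at 8.66, 8.48 and 8.30 FPKM in siEGFR libraries and at 8.29, 8.30 and 7.87 FPKM in siNC libraries. The EGF libraries lay below control, and the lowest siEGFR library barely exceeded the highest siNC library.

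TGFB2 was at 2.68, 2.46 and 3.05 FPKM in almonertinib libraries, at 4.27, 3.01 and 3.89 FPKM in EGF libraries and at 6.06, 3.58 and 4.12 FPKM in control libraries. It was at 12.3, 11.9 and 12.1 FPKM in siEGFR libraries and at 10.4, 10.5 and 11.6 FPKM in siNC libraries. Control 1 was again the highest of its group, and EGF overlapped control. The ratio of TGFB2 to TGFB1 was 0.105 to 0.130 in almonertinib libraries, 0.212 to 0.305 in EGF libraries, 1.41 to 1.46 in siEGFR libraries, 1.25 to 1.47 in siNC libraries and 0.174 to 0.345 in control libraries.

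Almonertinib against control set the ID genes and BAMBI above the rest of the list. On the log2(FPKM + 1) scale, ID2 was higher by 1.73 ± 0.08, ID3 by 1.38 ± 0.07, ID1 by 0.89 ± 0.10 and BAMBI by 0.45 ± 0.07 (log2 fold change ± SE from limma). BMP4 was lower at -0.19 ± 0.06 and TGFB2 at -0.56 ± 0.14. SMAD6 (0.04), SMAD7 (0.10), SKIL (-0.27) and TGFB1 (0.18) did not pass an adjusted p of 0.05 over all genes. So 6 of the 10 genes were past that threshold, where 30.1% of all tested genes were. In the upward direction there were 4 of the 10, where 12.1% of tested genes lay, and in the downward 2, where 18.0% lay. Since the members were named with these values known, nothing is read from that count. The groups did not overlap for 6 of the 10, against 35.2% of tested genes. The median change of the 10 was 0.14 and that of all tested genes -0.06. Over 17 alternatives ID1 stayed between 0.73 and 0.99, ID2 between 1.62 and 1.88 and ID3 between 1.25 and 1.47, all past the threshold. These are refits of the same libraries for genes named with these values known, so the ranges are descriptions only. BMP4 was past it in 10 of the 17 and TGFB2 in 16, and in a fit of these 6 libraries alone neither was. That fit called 399 of the 14999 tested genes higher and 458 lower, where the fit of all 15 libraries called 1817 and 2700. The BMP4 call was lost without almonertinib 2, almonertinib 3 or control 3, at -0.20, -0.15 and -0.14, and with median-ratio scaling, at -0.10. TGFB1 was past it, and higher, after median-ratio scaling (0.27) and without control 3 (0.25). The summed fibroblast markers, nearly all COL1A2, were at 349 to 373 FPKM in almonertinib libraries and 331 to 345 FPKM in control libraries. The summed endothelial markers were at 2.64 to 3.12 FPKM with almonertinib and 3.18 to 3.80 FPKM in control, and the part of either in the result was not tested.

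With EGF against control 6 of the 10 genes were past the threshold, and each of the 6 was lower. Of all tested genes 49.3% were past it, 22.0% higher and 27.3% lower. ID3 was lower at -1.365 ± 0.07, BAMBI at -0.78 ± 0.07, BMP4 at -0.55 ± 0.06, SMAD6 at -0.51 ± 0.06, TGFB1 at -0.48 ± 0.07 and ID2 at -0.41 ± 0.08. The added 1 shrinks the change of low genes. In untransformed means SMAD6 was at 53.7% of control, BAMBI at 55.7%, ID3 at 36.8% and ID2 at 71.3%. ID1 (0.13), SMAD7 (-0.07), SKIL (-0.33) and TGFB2 (-0.23) did not pass. Without control 1, whose SKIL and TGFB2 levels were the highest of its group, SKIL was at -0.11 and TGFB2 at -0.05. Without control 2 they were at -0.48 and -0.36 and past the threshold. The median of the 10 was -0.44, against -0.04 for all tested genes, and the groups did not overlap for 6, against 51.1% of tested genes. The fibroblast sum was at 189 to 211 FPKM in EGF libraries and 331 to 345 FPKM in control libraries. The endothelial sum was at 1.80 to 2.19 FPKM in EGF libraries and 3.18 to 3.80 FPKM in control libraries, and the part of either in the result was not tested.

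siEGFR against siNC moved the list little. BMP4 alone was past the threshold, at 0.22 ± 0.06, where 5.46% of tested genes were, 2.27% higher and 3.19% lower. That call was kept in 4 of 17 alternatives and was lost when any of the 6 siRNA libraries was left out. ID1 (0.17), ID3 (0.18), TGFB1 (0.05) and TGFB2 (0.15) did not pass, although every siEGFR library lay above every siNC library for these genes and for BMP4. These 5 of 10 compare with 40.5% of tested genes whose groups did not overlap. When the 6 siRNA libraries were fitted alone, ID1, ID3 and BMP4 were past the threshold. That fit called 1617 of the 14999 tested genes higher and 1463 lower, where the fit of all 15 libraries called 340 and 479. The fit of all 15 libraries shares 1 estimate of spread over the groups. Median absolute deviations were 0.033 to 0.047 in siRNA libraries and 0.048 to 0.139 in the others. Counts of calls thus depend on which libraries share that estimate. ID2 (-0.10), SMAD6 (0.04), SMAD7 (-0.03), BAMBI (0.02) and SKIL (-0.09) overlapped between the groups. The median of the 10 was 0.04 and that of all tested genes 0.01. The fibroblast sum was at 179.6 to 182 FPKM in siEGFR libraries and 130.0 to 137 FPKM in siNC libraries. The leukocyte sum, mostly CD14, was at 3.96 to 5.08 FPKM in siEGFR and 7.38 to 8.05 FPKM in siNC, and the endothelial sum at 0.590 to 0.656 FPKM in siEGFR and 0.664 to 0.776 FPKM in siNC. Their part was likewise not tested.

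The effect of almonertinib minus that of siEGFR compares kinase inhibition with knockdown, each against its own control. The drug effect exceeded the knockdown effect by 1.82 ± 0.12 for ID2, 1.21 ± 0.10 for ID3, 0.72 ± 0.14 for ID1 and 0.44 ± 0.10 for BAMBI. The difference was below 0 for BMP4, at -0.40 ± 0.08, and for TGFB2, at -0.71 ± 0.19. These 4 differences above 0 and 2 below, of 10 genes, stand beside 13.7% of tested genes past the threshold, 5.95% higher and 7.71% lower. The BMP4 call was lost with median-ratio scaling, at -0.30. The TGFB2 call was kept in 14 of 23 alternatives and was lost without almonertinib 1 or 2, without siNC 1 or 2 and without any siEGFR library, at -0.66 to -0.72. The siEGFR libraries held 58.8% of the EGFR transcript of siNC, and doses and times are not given, so the arms are not matched in strength. The baselines differed too, with ID1 in siNC at 389% of control, ID3 at 310%, ID2 at 295% and EGFR itself at 203%. EGFR thus averaged 29.1 FPKM in siEGFR, above 24.4 FPKM in control and 16.7 FPKM with almonertinib. DUSP6 averaged 4.07 FPKM in siEGFR, 2.16 FPKM in control and 0.343 FPKM with almonertinib. Levels need not follow the differences of effects. With almonertinib and in siEGFR, ID1 averaged 62.6 and 147 FPKM, ID3 82.8 and 109 FPKM and ID2 23.2 and 17.4 FPKM. BMP4 averaged 38.5 and 15.9 FPKM, and TGFB2 2.73 and 12.1 FPKM. With TPM scaling and with median-ratio scaling, the differences for ID1, ID2, ID3 and BAMBI stayed above 0 and past the threshold. The genes were named with their changes known, so this too is a description.

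siNC against control was the contrast in which all 10 genes were past the threshold, 7 higher and 3 lower. Of all tested genes 66.0% were past it, 34.4% higher and 31.6% lower. ID1 was higher by 1.94 ± 0.10, ID3 by 1.61 ± 0.07, ID2 by 1.43 ± 0.08 and TGFB2 by 1.11 ± 0.14. SKIL was higher by 0.84 ± 0.16, SMAD6 by 0.68 ± 0.06 and SMAD7 by 0.65 ± 0.07. BMP4 was lower at -1.63 ± 0.06, TGFB1 at -1.20 ± 0.07 and BAMBI at -0.18 ± 0.07. BAMBI was past the threshold in 8 of 17 alternatives and not without control 2, control 3 or any siNC library. In untransformed means ID1 was at 389% of control, ID3 at 310%, ID2 at 295% and BMP4 at 30.8%. The groups did not overlap for any of the 10, against 68.8% of tested genes, 35.5% higher and 33.2% lower. The median of the 10 was 0.76 and that of all tested genes 0.03. Marker transcripts of other cell types moved as well. The fibroblast sum was at 130.0 to 137 FPKM in siNC libraries and 331 to 345 FPKM in control libraries. The summed leukocyte markers, mostly CD14, were at 7.38 to 8.05 FPKM in siNC and 30.7 to 40.6 FPKM in control. The endothelial sum was at 0.664 to 0.776 FPKM in siNC and 3.18 to 3.80 FPKM in control. The epithelial sum was at 1117 to 1161 FPKM in siNC and 929 to 1130 FPKM in control, but its single markers moved in opposite directions. In siNC and control, KRT7 averaged 302.9 and 56.4 FPKM, EPCAM 35.2 and 6.58 FPKM and CDH1 16.3 and 5.69 FPKM. KRT18, NKX2-1, NAPSA and SFTPB also averaged higher in siNC. KRT19 was lower in siNC, at 334.97 against 589.5 FPKM, and KRT8 was nearly level, at 228.4 against 231.3 FPKM. The part of these markers in the result was not tested.

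**Figure D3:**
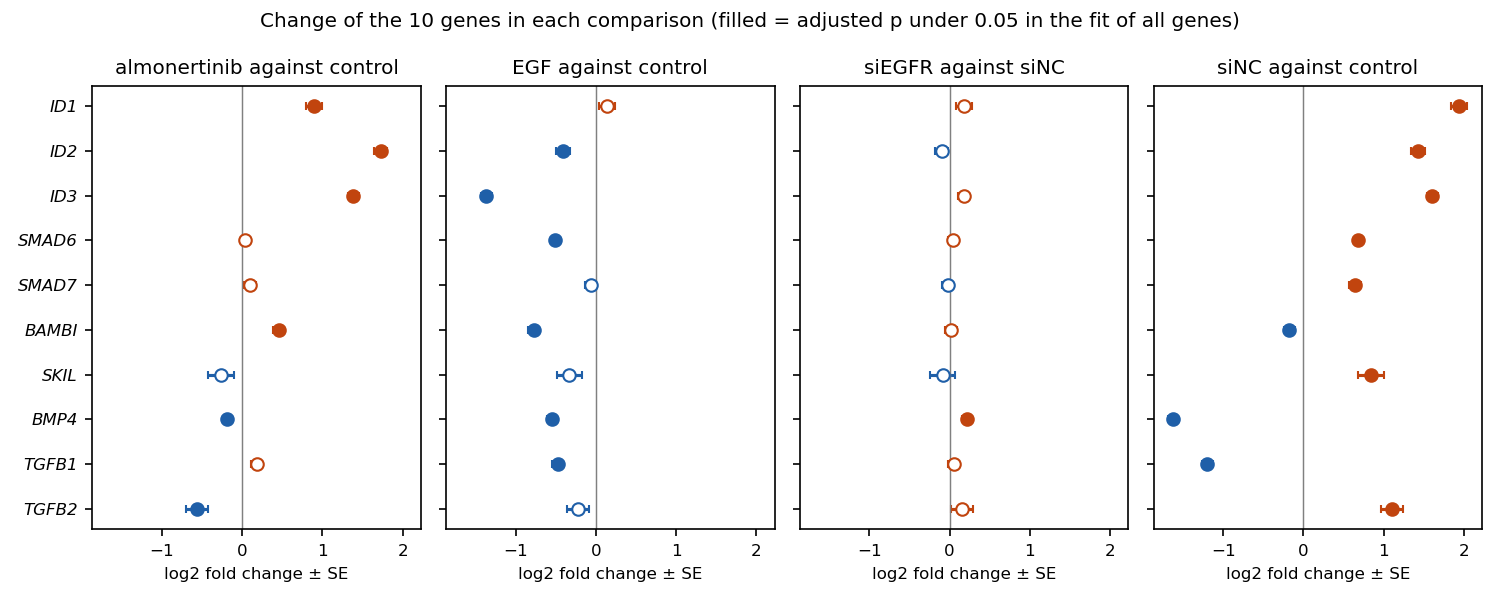
Log2 fold change ± SE of the 10 genes on the log2(FPKM + 1) scale in the 4 contrasts, filled where adjusted p was under 0.05 in the fit of all genes, orange above and blue below 0. The ID genes lie to the right with almonertinib (0.89 to 1.73) and in siNC against control (1.43 to 1.94), while siEGFR against siNC stays between -0.10 and 0.22.

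The circuit around these genes was followed in 79 further ligands, antagonists, receptors, SMADs, regulators and targets, of which 56 were tested. This list was drawn up with earlier results of these data known. Genes named from it here and below were mostly picked for large changes past the threshold. Their adjusted p-values are therefore descriptions and not independent evidence. With almonertinib 5 rose, 21 fell and 30 did not pass, where 12.1% of all tested genes were higher and 18.0% lower. The median of the 56 was -0.17 and that of all tested genes -0.06. Among targets of SMADs, ATOH8, a helix-loop-helix factor of the BMP branch, rose to 6.05 ± 0.478 FPKM with almonertinib, against 2.62 ± 0.211 FPKM in control (0.96 ± 0.06, limma adjusted p = 7.2e-07). ID4, the remaining ID gene, rose by 0.52 (adjusted p = 0.0132). CCN2, a matrix-associated TGF-beta target, fell by 1.38 (adjusted p = 6.77e-07). The target genes therefore split, with 2 higher, 5 lower and 4 not past the threshold. Among ligands INHA, the inhibin alpha subunit, rose by 0.79 (adjusted p = 0.00104), and among antagonists FSTL3, which binds activin, rose by 0.40 (adjusted p = 0.0131). Of 11 receptors 4 fell, with the TGF-beta receptor TGFBR1 at -0.79 ± 0.13 (adjusted p = 0.000653). HIPK2, a nuclear kinase of the regulators, fell by 0.70 (adjusted p = 0.0024). SMAD3 (-0.39) and SMAD5 (-0.57) fell among 5 transducers, genes chosen after their values were seen. In a fit of the 6 libraries alone 1 rose and 5 fell, where 399 of all 14999 tested genes rose and 458 fell. INHA, ID4, FSTL3, HIPK2 and SMAD5 did not pass in that fit. SMAD5 passed in 10 of 17 alternatives and not without almonertinib 1 (-0.58), almonertinib 2 (-0.46) or control 1 (-0.34). FSTL3 did not pass without almonertinib 2 (0.32). Of all calls in this contrast 40.2% were higher. With values rescaled to TPM that share was 22.0%, and 4 pathway genes rose and 27 fell. With median-ratio scaling it was 53.7%, and 8 rose and 16 fell.

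With EGF 12 of the 56 rose, 21 fell and 23 did not pass, where 22.0% of all tested genes were higher and 27.3% lower. The median of the 56 was -0.0032 and that of all tested genes -0.04. NOG rose by 1.38 ± 0.07 (limma adjusted p = 9.04e-09), the homeobox target MSX1 by 0.91 (adjusted p = 3.09e-06) and TGFBR1 by 0.81 (adjusted p = 0.000142). ATOH8 fell to 0.223 ± 0.0359 FPKM with EGF, against 2.62 ± 0.211 FPKM in control (-1.56 ± 0.06, adjusted p = 8.96e-10). INHBB, the activin beta B subunit, fell by 1.65 (adjusted p = 1.85e-07), the coreceptor TGFBR3 by 0.78 (adjusted p = 7.26e-06) and the ligand TGFB3 by 0.57 (adjusted p = 5.84e-06). The EGF and almonertinib contrasts share the control libraries. Side by side, ATOH8 was at 0.96 with almonertinib and -1.56 with EGF, and TGFBR1 was at -0.79 with almonertinib and 0.81 with EGF. The genes named here for EGF passed in each of the alternatives in which they were tested.

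In siEGFR against siNC 4 of the 56 rose, 4 fell and 48 did not pass, where 2.27% of all tested genes were higher and 3.19% lower. Their median was -0.02 and that of all tested genes 0.01. FSTL1, a secreted follistatin-like protein, rose to 25.7 ± 0.550 FPKM in siEGFR, against 16.3 ± 0.283 FPKM in siNC (0.63 ± 0.09, limma adjusted p = 0.00152). INHBA, the activin beta A subunit, rose by 0.61 (adjusted p = 9.57e-05) and the latency protein LTBP1 by 0.24 (adjusted p = 0.0218). The BMP receptor ACVR1 fell by 0.30 (adjusted p = 0.00231), BMP2 by 0.26 (adjusted p = 0.00852), the activin receptor ACVR1B by 0.25 (adjusted p = 0.0276) and the ligand GDF11 by 0.25 (adjusted p = 0.0269). FSTL1, INHBA and ACVR1 passed in each alternative in which they were tested. LTBP1 passed in 8 of 17, ACVR1B in 9 of 17, GDF11 in 7 of 16 and BMP2 in 14 of 17. Leaving out any 1 of the 6 siRNA libraries ended the calls of LTBP1, ACVR1B and GDF11, and that of BMP2 was lost without siEGFR 2, siEGFR 3 or siNC 2. A fit of the 6 siRNA libraries alone called 10 higher and 9 lower, where it called 1617 of all 14999 tested genes higher and 1463 lower. Leaving out 1 siRNA library called 4 or 5 of the 56 in all. ATOH8 averaged 1.32 FPKM in siEGFR and 0.975 FPKM in siNC and did not pass.

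In siNC against control 25 of the 56 rose, 21 fell and 10 did not pass, where 34.4% of all tested genes were higher and 31.6% lower. Their median was 0.15 and that of all tested genes 0.03. PMEPA1, which sequesters SMADs, rose by 1.40 (limma adjusted p = 6.88e-11), GDF11 by 1.09 (adjusted p = 3.59e-09) and the transcriptional repressor HEY1 by 1.18 (adjusted p = 3.22e-09). HEY1 averaged 1.39 FPKM in siNC and 0.0560 FPKM in control. INHBB fell to 0.398 ± 0.129 FPKM in siNC, against 9.38 ± 1.18 FPKM in control (-2.89 ± 0.12, adjusted p = 3.61e-10). INHA fell by 1.63 (adjusted p = 2.47e-07), the latency protein LTBP3 by 1.13 (adjusted p = 1.64e-06) and LTBP4 by 0.99 (adjusted p = 1.21e-05). Of 8 antagonists and latency proteins 3 rose and 5 fell. ATOH8 fell by 0.87 in siNC against control (adjusted p = 6.34e-08), where the 3 ID genes were higher.

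**Figure D4:**
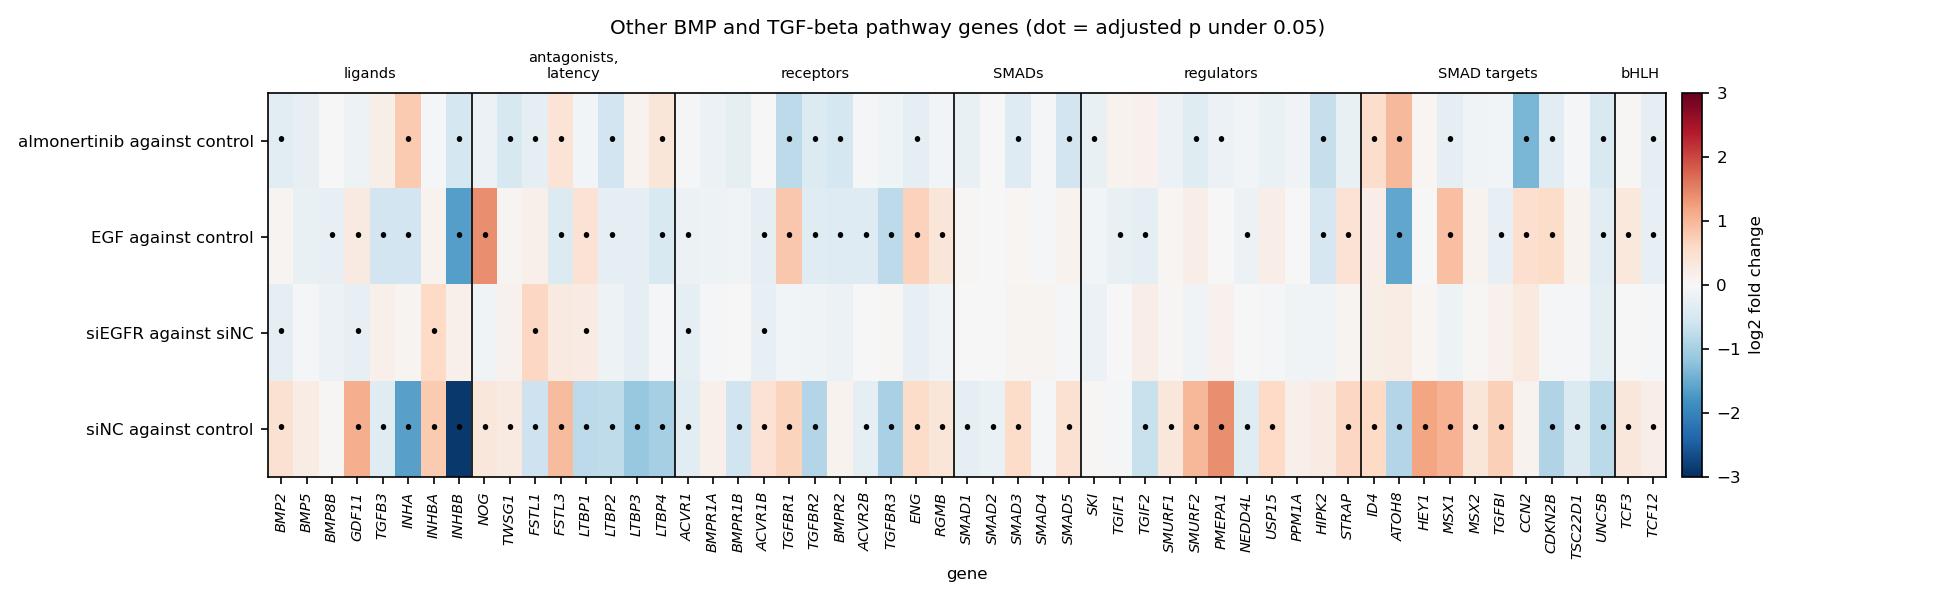
Log2 fold change on the log2(FPKM + 1) scale of 55 of the 56 other pathway genes tested (columns, by role) in 4 contrasts (rows), red above and blue below 0, with a dot where adjusted p was under 0.05. ATOH8 and TGFBR1 have opposite colours with almonertinib and EGF, and siEGFR against siNC has 7 dots.

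Patterns over the 15 libraries were ranked by their likeness to the mean of the 3 ID genes, each centred on the log2 scale. The ranking took tested protein-coding genes outside the members and the pathway list. Most alike among these were MAPK11, RAB3IL1, BRF1, ADAM11 and TNNT1. MAPK11, a p38 kinase, had a Pearson r of 0.978 and averaged 1.99 FPKM with almonertinib, 0.930 FPKM with EGF, 2.51 FPKM in siEGFR, 2.36 FPKM in siNC and 1.06 FPKM in control. TNNT1, a troponin T, had an r of 0.956 and averaged 68.1 FPKM with almonertinib, 44.5 FPKM with EGF, 78.1 FPKM in siEGFR, 86.4 FPKM in siNC and 45.2 FPKM in control. The most opposite patterns were those of CORO2A, HS6ST2, STMN3, MAVS and MAOB, with r of -0.988 for CORO2A, a coronin, and -0.978 for MAOB, a monoamine oxidase. MAOB averaged 4.66 FPKM with almonertinib, 17.7 FPKM with EGF, 1.89 FPKM in siEGFR, 2.39 FPKM in siNC and 10.5 FPKM in control. The libraries form 5 groups of 3, so these coefficients describe group patterns and carry no p. Over the 9 libraries without siRNA, r was 0.963 for MAPK11 and -0.983 for MAOB. Of the listed pathway genes, FSTL3 had 0.939 over 15 libraries and 0.906 over 9, while ATOH8 had 0.336 and 0.923.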

How the data were processed

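RNA from 15 libraries of NCI-H1975 cells was enriched with oligo(dT) beads and made into paired-end libraries, per the labels' protocols. The authors deposited FPKM values (fragments per kilobase of gene, scaled to library depth) in a single table. Tools in the submitters' processing notes are featureCounts, HISAT2 and DESeq2, and the build is hg19, with no version or role given. Reads per gene were recovered from the steps of the FPKM values, and 99.998% of positive values were whole within 0.01 reads. The p-values cover the spread between libraries, whose number limits the precision. Symbols were matched by Ensembl ID for 60463 loci. The members and gene lists were chosen with earlier results of these data known.

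Loci with at least 1 FPKM in at least 3 libraries (14999) were fitted as log2(FPKM + 1) in R 4.3.3 by limma 3.58.1 (trend and robust moderation on, 1 coefficient per group) on all 15 libraries (10 residual degrees of freedom). Tests were two-sided with Benjamini-Hochberg adjustment over all loci at 0.05. "Rose" and "fell" mean past this threshold. An exact permutation test of 3 against 3 libraries cannot go below p = 0.1 and was not used. Pathway genes named are, per contrast, the 4 largest increases and decreases past the threshold with at least 1 FPKM in the higher group and no overlap of libraries. A pathway gene that enters the counts is not reported here by name. For likeness, the 5 highest and 5 lowest coefficients are named among tested protein-coding genes outside the members and pathway genes. Genes named only as clones or open reading frames were left out. The fit was tested on simulated data. Alternatives changed the pseudocount (0.1), filter (none or 5 FPKM), scaling, libraries fitted, variance model, threshold (0.01) and replicate block, used limma-voom on recovered reads, or left out each library. A fit without control 1 and almonertinib 3 was added after seeing the data. Upstream sequences are RefSeq's, GRCh38.p14, matched by symbol for 10 of 10 genes. Positions are given only for these upstream windows, on that build, since the notes name another build for the deposited values. Tables and figures came from Python 3.11.15 (pandas 2.3.3, numpy 2.4.6, matplotlib 3.10.9).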

Additional observations from a re-analysis of the deposited data

How the results depend on the processing

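Counts of the 10 genes past the threshold ran from 4 to 6 for almonertinib, 5 to 8 for EGF, 7 to 10 for siNC against control and 4 to 6 for the difference of effects, within 1.5 times the reported counts under each alternative run. The genes were named with these values known, so these steady counts are no independent evidence. Calls over all tested genes moved more. With almonertinib 1817 were higher and 2700 lower, but 399 and 458 with only those groups and 2110 and 3504 with the replicate block. For siEGFR against siNC the count of 1 became 0 with no filter, TPM scaling, median-ratio scaling, no trend, limma-voom, a threshold of 0.01 and, leaving out 1 library, 0 to 0. It became 3 when only the groups compared were fitted and 2 without control 1 and almonertinib 3. Pathway genes called with almonertinib numbered 26, but 6 when only those groups were fitted and 16 at 0.01. For siEGFR against siNC they numbered 8, but 5 with the 5 FPKM filter, 19 with only those groups, 5 at 0.01, 4 to 5 leaving out 1 library and 16 without control 1 and almonertinib 3. For siNC against control they numbered 46, but 30 with the 5 FPKM filter, which tests 36 of the pathway genes. Without control 1 and almonertinib 3 the members split 4 higher and 2 lower with almonertinib, 0 and 6 with EGF, 7 and 3 in siNC and 4 and 2 in the difference of effects. Other causes were not tested.

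The median of all genes in the difference of effects was -0.07, and -0.18 after TPM scaling. Of its calls 43.5% were higher, 24.3% on the TPM scale and 57.4% with median-ratio scaling. Replicate numbers were not shown to pair libraries throughout: correlations of same-numbered libraries ran from -0.17 to 0.60, and in each contrast at least 1 was under 0.1. The highest were with the same-numbered control, at 0.54 for almonertinib 2, 0.60 for EGF 2 and 0.55 for EGF 1. A batch shared by some of these libraries was not tested. With the replicate block the members called were 6, 7, 0, 10 and 6 for almonertinib, EGF, siEGFR, siNC and the difference, and pathway genes 30, 35, 8 and 47 for the first 4 of these. Of the member fold changes under alternatives, 846 stayed on their side of the threshold, 41 were no longer past it and 8 came to pass it. Depth limits SKIL, at 101 to 858 reads per library, and SMAD7, at 174 to 560 reads.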
